A study of Xenopus tropicalis with 12 samples.

Results

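Thyroid hormone (T3) drives the remodeling of the tadpole intestine, in which the larval epithelium degenerates and an adult epithelium forms from newly made stem cells. It acts through the thyroid hormone receptors TRα and TRβ, nuclear receptors that bind target genes as heterodimers with retinoid X receptors. Without hormone they recruit corepressors to these genes, and with hormone they recruit coactivators. Described here are 11 genes of the Xenopus tropicalis intestine whose scaled levels at both stages studied lay within 2-fold of each other in wild-type tadpoles. In tadpoles lacking both TR genes their level was at least 4-fold lower than in wild-type tadpoles at both stages. They were 11 of 19921 Ensembl gene IDs counted. No table at hand pairs these IDs with gene names, so the genes are given by ID and nothing is said of what they encode.

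RNA-seq was carried out on whole intestine from TR double knockout tadpoles (TRDKO, homozygous for mutations of both TRα and TRβ) and from wild-type tadpoles, at premetamorphic stage 54 and at stage 61, the climax of metamorphosis. There were 3 libraries for each genotype at each stage, that is TRDKO stage 54, wild-type stage 54, TRDKO stage 61 and wild-type stage 61, and the labels name no hormone treatment. The study worked with a pair of TRDKO lines that carry different out-of-frame deletions in TRβ on the same TRα knockout background. The labels do not say which line a library came from or how many animals it holds. For RNA extraction and qRT-PCR the study combined tissue of several animals per genotype, and its RNA-seq methods do not state whether libraries were pools. TRDKO tadpoles were the offspring of frogs that already lacked TRα, so they shared no clutch with the wild-type tadpoles, and clutch and genotype cannot be told apart. The TR genes themselves and markers of the intestine could not be looked up without gene names.

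The total count per library was between 20112705 and 37936503. Libraries were scaled by size factors, each the median over genes of a library's ratio to the geometric mean of all libraries, and a value scaled in this way is called a normalised count. Most pairs of libraries within a group differed by little more than counting noise. In 10 pairs the chi-square statistic of a gene had a median 1.19 to 1.87 times that of noise alone. The 2 pairs that hold TRDKO stage 54 replicate 3 stood apart, at 26.9 and 30.7 times. The values and memberships that this library moved most are given with and without it.

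The genes were chosen by their normalised counts in all 4 groups, so the distance between the genotypes is a description and was not tested. A wild-type mean of at least 50 at stage 54 was reached by 10277 genes, and in 5811 of these the wild-type mean at stage 61 lay within 2-fold of that at stage 54. Of these 5811 stage-flat genes, 27 (0.465%) were at least 4-fold lower in TRDKO than in wild-type intestine at stage 54 and 137 (2.36%) at stage 61. Without TRDKO stage 54 replicate 3, 33 of 5798 stage-flat genes were this low at stage 54. Both limits were met by 11 genes (0.189%), while 16 met only the limit at stage 54 and 126 only that at stage 61. The mirrored rule, with TRDKO at least 4-fold above wild type at both stages, was also met by 11 stage-flat genes.

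Relative to wild type, the 11 genes had a median TRDKO level of 19.2% at stage 54 and 7.08% at stage 61, against 98.4% at each stage over all stage-flat genes. Without TRDKO stage 54 replicate 3 the median of the 11 genes was 22.2% at stage 54. The TRDKO level at stage 54 was between 19.2% and 23.8%, close to the limit of the rule, in 6 of the genes and well beyond it in the other 5, as the plot of the TRDKO level relative to wild type shows. In each of the 11 genes every TRDKO library was below every wild-type library of the same stage, which the rule all but fixes. The share of all genes with such a separation is not given, so nothing is read from it. With whole intestine, fewer cells that express a gene and less of its RNA per cell cannot be told apart.

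**Figure D1:**
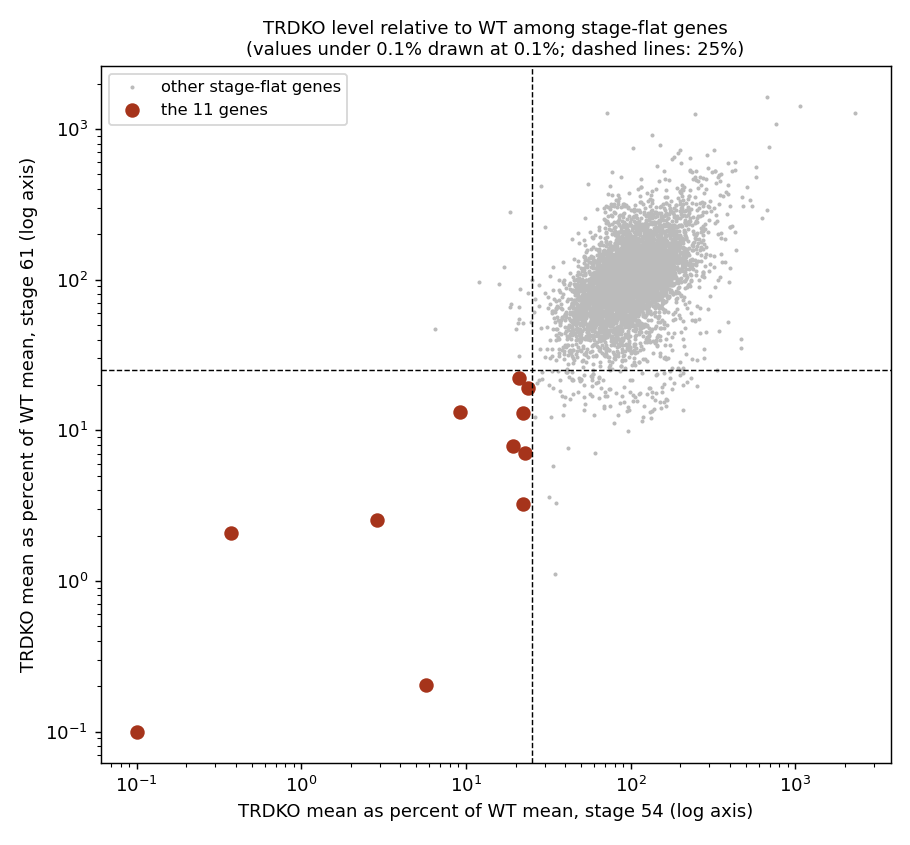
TRDKO mean as a percentage of the wild-type mean at stage 54 (horizontal, log axis) and at stage 61 (vertical, log axis) for the 5811 stage-flat genes. The 11 genes (large points) lie below the dashed 4-fold limits on both axes, 6 of them just inside the limit at stage 54, and the gene without TRDKO counts is drawn at the lower left corner.

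ENSXETG00000026933 was the one member with no count in any of the 6 TRDKO libraries. Its normalised counts were 0 in TRDKO stage 54 replicates 1, 2 and 3, against 211.2, 210.5 and 243.0 in the wild-type libraries of that stage. At stage 61 they were again 0 in every TRDKO library, against 193.0, 174.4 and 230.3 in wild-type libraries. The wild-type libraries held 418 raw reads of this gene at stage 54 and 912 at stage 61. A count of 0 allows up to 3 counts in a library, and against this limit the gene was at least 72.0-fold lower in TRDKO intestine at stage 54 and at least 70.1-fold lower at stage 61. This limit covers counting error only.

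The combination of no TRDKO count with a wild-type mean of at least 50 at both stages was found in 2 genes of the whole table. The other, ENSXETG00000022030, fell outside the stage window because its wild-type mean at stage 61 was 0.404 times that of 185 at stage 54. ENSXETG00000031284, likewise at 0 in every TRDKO library, fell short of the minimum with a wild-type mean of 44.3 at stage 54. In the reverse direction, 0 genes combined no wild-type count with a TRDKO mean of at least 50 at both stages. With the mean of at least 50 required at only 1 of the stages, these numbers were 5 genes without TRDKO counts and 2 genes without wild-type counts.

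ENSXETG00000023395 and ENSXETG00000020831 were nearly absent from TRDKO intestine at both stages. ENSXETG00000023395 had 1, 0 and 0 raw counts in the TRDKO stage 54 libraries and 4, 2 and 2 in the TRDKO stage 61 libraries. Its wild-type libraries, by contrast, held 172 counts at stage 54 and 553 at stage 61. Its pooled TRDKO level was 0.357% of wild type at stage 54 (95% exact interval for counting error 0.00899% to 2.02%) and 2.10% at stage 61 (0.902% to 4.17%). The gene was thus at the edge of detection in every TRDKO library.

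ENSXETG00000020831 had 2, 2 and 3 raw counts in TRDKO libraries at stage 54, against normalised counts of 64.5, 97.2 and 77.3 in wild-type libraries, where those TRDKO counts correspond to 2.01, 2.62 and 2.29. At stage 61 its normalised counts were 2.31, 1.09 and 5.89 in TRDKO libraries, against 124.4, 112.1 and 129.7 in wild-type libraries. It stood at 2.89% of wild type at stage 54 and 2.54% at stage 61. Together with ENSXETG00000026933, these were the 3 genes below 3% of wild type at both stages.

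ENSXETG00000004496 was low at stage 54 and lower still at stage 61 in TRDKO intestine. Its normalised counts at stage 54 were 7.03, 9.18 and 1.52 in TRDKO libraries, against 93.9, 106.6 and 110.5 in wild-type libraries. At stage 61 a single raw count remained over the 3 TRDKO libraries, in replicate 1, against normalised counts of 123.8, 115.8 and 140.3 in wild-type libraries. The pooled TRDKO level was 4.99% of wild type at stage 54 (95% exact interval 2.80% to 8.31%) and 0.249% at stage 61 (0.00628% to 1.39%). By group means it was 5.70% at stage 54, or 7.82% without TRDKO stage 54 replicate 3.

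ENSXETG00000022190 was well expressed in wild-type intestine and had 1 high TRDKO library at stage 54. Its normalised counts at stage 54 were 51.2, 42.0 and 179.8 in TRDKO libraries, against 989.7, 1003 and 962.7 in wild-type libraries. At stage 61 they were 255.9, 232.6 and 254.1 in TRDKO libraries, against 1821, 1926 and 1841 in wild-type libraries. Wild-type libraries of a stage lay within a few percent of each other, and the wild-type mean at stage 61 was 1.89 times that at stage 54, near the upper edge of the stage window. TRDKO stage 54 replicate 3 stood 3.86-fold above the mean of replicates 1 and 2. The TRDKO level was 9.24% of wild type at stage 54, or 4.73% without replicate 3, and 13.3% at stage 61.

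The remaining 6 genes were between 19.2% and 23.8% of wild type at stage 54. ENSXETG00000019175 had normalised counts of 420.9, 463.0 and 190.5 in TRDKO libraries at stage 54, against 1625, 1565 and 1659 in wild-type libraries. At stage 61 it had 122.6, 136.5 and 142.2 in TRDKO libraries, against 1005, 1052 and 1033 in wild-type libraries. TRDKO replicate 3 at stage 54 was thus nearer to the stage 61 libraries than to the other libraries of its own group.

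In ENSXETG00000031140, TRDKO replicate 3 at stage 54 was again the lowest library of its group. It had 164.7, 190.2 and 91.5 in TRDKO libraries at stage 54, against 690.5, 659.9 and 602.9 in wild-type libraries. At stage 61 it had 37.8, 31.7 and 41.2 in TRDKO libraries, against 518.3, 524.8 and 519.8 in wild-type libraries. Its wild-type level was the most even of the 11 genes at stage 61, with an SD of 0.654% of the mean (n = 3).

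ENSXETG00000032647 was the most scattered of these 6 genes in TRDKO intestine at stage 54. It had 40.2, 69.5 and 10.7 in TRDKO libraries at that stage, against 179.9, 209.2 and 238.3 in wild-type libraries. At stage 61 it had 19.3, 19.7 and 14.7 in TRDKO libraries, against 226.4, 219.5 and 237.4 in wild-type libraries. ENSXETG00000019690 differed least between the stages in both genotypes. It had 88.0 ± 25.9 in TRDKO and 369.7 ± 9.58 in wild-type libraries at stage 54, and 72.1 ± 7.08 in TRDKO and 379.7 ± 26.3 in wild-type libraries at stage 61 (mean ± SD, n = 3 each).

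ENSXETG00000003443 and ENSXETG00000026803 had few counts in TRDKO libraries. ENSXETG00000003443 had 15.1, 24.9 and 16.8 in TRDKO libraries at stage 54, against 86.1, 93.1 and 91.5 in wild-type libraries. At stage 61 it had 11.6, 13.1 and 6.87 in TRDKO libraries, against 45.5, 52.9 and 43.2 in wild-type libraries. Its level was lower at stage 61 in both genotypes, and the wild-type ratio of 0.523 was near the lower edge of the stage window.

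ENSXETG00000026803 had 11.05, 13.1 and 10.7 in TRDKO libraries at stage 54, against 39.1, 62.1 and 56.8 in wild-type libraries. At stage 61 it had 0, 1.09 and 2.94 in TRDKO libraries, against 39.5, 42.4 and 43.2 in wild-type libraries. The first of these wild-type libraries at stage 54 held 20 raw counts and the TRDKO libraries at stage 61 held 4 in all, so its values carry the widest counting error among the 6 genes.

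**Figure D2:**
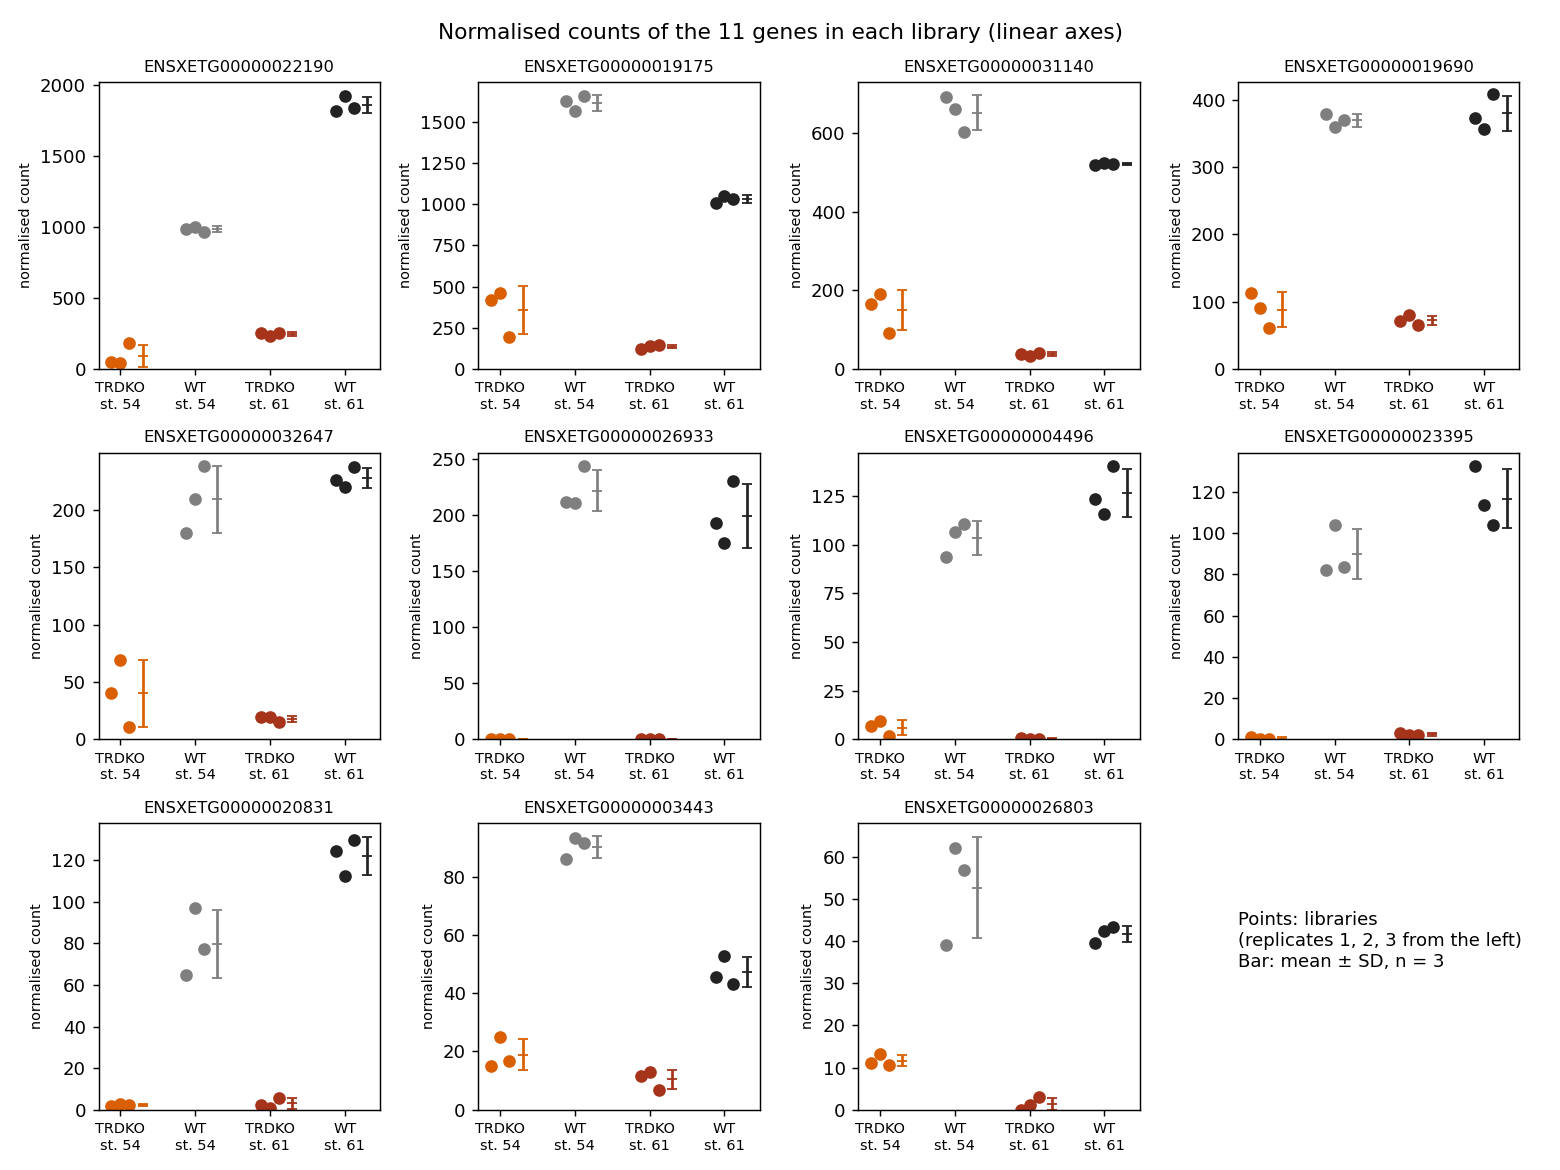
Normalised counts (linear vertical axes that start at 0) of the 11 genes in TRDKO and wild-type (WT) libraries at stage 54 and stage 61, with 1 point per library and the mean ± SD (n = 3) beside each group. In every gene the TRDKO points lie below the WT points of the same stage, which the choice of genes all but fixes. ENSXETG00000026933 is at 0 in all 6 TRDKO libraries.

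The values nearest to the 4-fold limit were 23.8% of wild type for ENSXETG00000019690 at stage 54 and 22.9% for ENSXETG00000031140 at stage 54 on the inside. On the outside they were 26.2% for ENSXETG00000031394 and 27.2% for ENSXETG00000007049, both at stage 54. Genes thus lay close to the limit on both of its sides.

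TRDKO stage 54 replicate 3 decided the membership of 4 of the 11 genes. In 6 of the 8 genes with at least 10 counts over the TRDKO stage 54 libraries, this replicate lay more than 1.5-fold from the mean of replicates 1 and 2. It was 3.86-fold above that mean in ENSXETG00000022190. In ENSXETG00000019175, ENSXETG00000031140, ENSXETG00000019690, ENSXETG00000032647 and ENSXETG00000004496 it was at 0.431, 0.515, 0.601, 0.194 and 0.188 times that mean. Without it, 9 genes met the rule, of which 7 were among the 11, so genes outside the 11 also came in. ENSXETG00000019175, ENSXETG00000031140, ENSXETG00000019690 and ENSXETG00000032647 then stood at 27.3%, 27.3%, 27.5% and 26.2% of wild type at stage 54 and no longer did.

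In some members this replicate was nearer to the stage 61 libraries of its genotype than to its own group. In 7 members the TRDKO stage 61 mean was more than 2-fold from the mean of replicates 1 and 2. On the log scale, replicate 3 lay past the midpoint toward the stage 61 mean in 3 of them, ENSXETG00000022190, ENSXETG00000019175 and ENSXETG00000032647. With 1 added to each value before the log, ENSXETG00000004496 was the fourth. A difference of more than 2-fold of this kind was found in 2096 of all genes with a wild-type mean of at least 50 at stage 54. Replicate 3 lay past the midpoint in 756 of these 2096 genes (36.1%), so this was also seen outside the members.

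**Figure D3:**
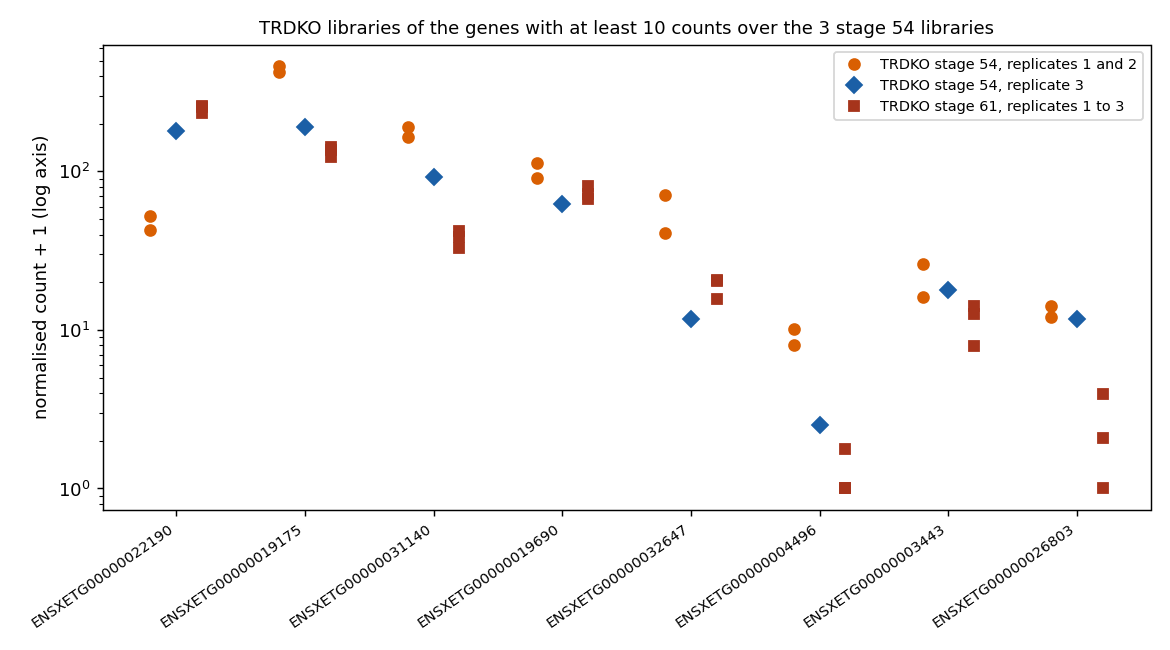
Normalised count plus 1 (log vertical axis) in TRDKO libraries for the 8 genes with at least 10 counts over the TRDKO stage 54 libraries. In ENSXETG00000022190, ENSXETG00000019175, ENSXETG00000031140 and ENSXETG00000004496, replicate 3 of stage 54 (diamond) lies between replicates 1 and 2 of that stage (circles) and the 3 libraries of stage 61 (squares). In ENSXETG00000026803 it does so too, close to replicate 1.

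Genes were also chosen on 2 replicate numbers and then read in the libraries left out. When replicate 3 was left out of all 4 groups, 8 genes were chosen, 7 of them members, and 7 were also at least 4-fold lower in TRDKO replicate 3 than in wild-type replicate 3 at both stages. When replicate 1 was left out, 17 genes were chosen, including all 11 members, and 7 were at least 4-fold lower and 16 at least 2-fold lower in the libraries left out. When replicate 2 was left out, 13 genes were chosen, 9 of them members, and 5 were at least 4-fold and 13 at least 2-fold lower. These counts are a description, with 1 library per group left out and no share of all genes given, so they do not replicate the choice.

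The flatness in wild type rests on the scaling of libraries. With edgeR's TMM factors the rule chose the same 11 genes. With library size alone it chose 13 genes, none of which was among the 11. Under that scaling the wild-type mean at stage 61 was 1.24 to 4.48 times that at stage 54 in the 11 genes and within 2-fold in only 4. All 11 were still at least 4-fold lower in TRDKO intestine at stage 61, and 5 of them at stage 54, namely ENSXETG00000026933, ENSXETG00000023395, ENSXETG00000020831, ENSXETG00000004496 and ENSXETG00000022190.

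The stage difference within TRDKO intestine, and that of the TRDKO to wild-type ratio, are made of the group means by which the genes were chosen. A gene near the limit at stage 54 could hardly have a higher ratio at stage 61 and still be a member. The differences are therefore a description, with no test. They were taken from 1 edgeR (quasi-likelihood) model of all 13954 genes with sufficient counts, which all 11 genes passed through their wild-type level. Past an adjusted p of 0.05 and 2-fold in that model, 4 of the 11 genes were lower at stage 61 than at stage 54 in TRDKO intestine, beside 12% of all genes tested, and 2 were higher, beside 12.5%. Because of the choice of genes, nothing is read from these counts. No difference can be given for ENSXETG00000026933, which had no TRDKO count. Over the other 10 genes the median log2 fold change was -0.95, and over all genes tested it was -0.00136.

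Most members with TRDKO counts had a lower TRDKO level at stage 61. ENSXETG00000004496 had a log2 fold change of -3.69 ± 0.89 (standard error from the model, as in the values that follow). It was -4.24 without TRDKO stage 54 replicate 3 and -5.53 without TRDKO stage 61 replicate 1, the library with its single count at that stage. ENSXETG00000026803 was at -3.09 ± 0.56, with -2.42 without TRDKO stage 61 replicate 1 and -4.35 without TRDKO stage 61 replicate 3. These 2 genes had 1 and 4 raw counts over the TRDKO libraries of stage 61, so the size of their differences is poorly set.

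ENSXETG00000031140 was at -1.99 ± 0.24, or -2.25 without TRDKO stage 54 replicate 3. ENSXETG00000019175 was at -1.42 ± 0.26, or -1.73 without that library. ENSXETG00000032647 was at -1.08 ± 0.50, or -1.56 without it, and at -0.45 at the other end of the range over single libraries left out. In wild-type intestine these 3 genes had stage 61 means of 0.800, 0.637 and 1.09 times those at stage 54, within the window the rule set.

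ENSXETG00000022190 had a higher TRDKO level at stage 61, by 1.37 ± 0.38 on the log2 scale, or 2.39 without TRDKO stage 54 replicate 3. Its wild-type level was also higher at stage 61. ENSXETG00000023395 had 8 raw counts over the TRDKO libraries of stage 61 against 1 over those of stage 54. The ratio of its pooled levels was 7.60, with an exact interval for counting error of 1.02 to 337, so its stage difference was hardly measured at this depth.

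The change of the TRDKO to wild-type ratio sets the distance from wild type at stage 61 against that at stage 54. Past the same thresholds the ratio was lower at stage 61 in 3 of the 11 genes, beside 26.8% of all genes tested. It was higher in 0 of the 11 by edgeR and by DESeq2, beside 17.0% of all genes tested by edgeR. At an unadjusted edgeR p under 0.05 the ratio was higher in 1 gene, ENSXETG00000023395, and lower in 4, with no share of all genes given. These counts too carry the limits of the rule, and nothing is read from them. ENSXETG00000004496 stood at 0.203% of wild type at stage 61 and 5.70% at stage 54, a log2 change of the ratio of -4.02 ± 0.93. ENSXETG00000026803 stood at 3.23% at stage 61 and 22.0% at stage 54, a change of -2.78 ± 0.64. ENSXETG00000031140 stood at 7.08% at stage 61 and 22.9% at stage 54, a change of -1.71 ± 0.31.

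With all libraries, ENSXETG00000019690 and ENSXETG00000003443 were about as far below wild type at one stage as at the other. Their changes of the ratio were -0.36 ± 0.25 and 0.07 ± 0.37 on the log2 scale. Without TRDKO stage 54 replicate 3 they were -0.59 and 0.0029. Over all single libraries left out they ranged from -0.59 to -0.13 and from -0.0907 to 0.29. Without TRDKO stage 54 replicate 3 the number of the 11 genes past the thresholds was 5 lower and 1 higher. No share of all genes is given for that fit, so nothing is read from these counts. ENSXETG00000019175 (-1.12) and ENSXETG00000032647 (-1.70) were then added to the lower ones, and ENSXETG00000022190 (1.43) was the higher one. In the absence of TRDKO stage 54 replicate 3, ENSXETG00000019175 and ENSXETG00000032647 no longer met the rule, at 27.3% and 26.2% of wild type at stage 54. With library size alone the median change of the ratio over all genes shifted by -1.19 on the log2 scale, and 7 of the 11 genes were past the thresholds on the lower side. The shift alone is larger than the 2-fold threshold, so nothing is read from that count.

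**Figure D4:**
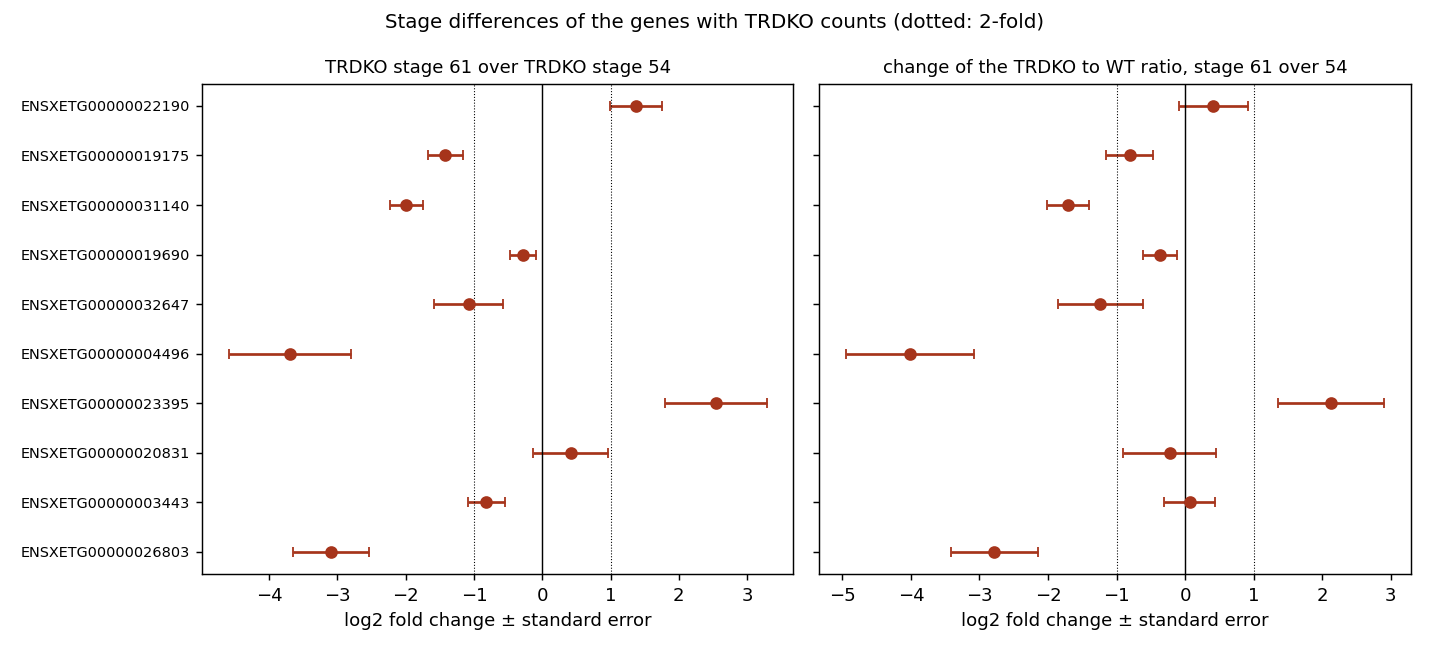
Log2 fold change ± standard error (edgeR) between stage 61 and stage 54 in TRDKO intestine (left) and of the TRDKO to wild-type ratio (right) for the 10 genes with TRDKO counts, where dotted lines mark 2-fold. ENSXETG00000004496 lies farthest to the lower side in both panels, at -3.69 and -4.02, with a standard error of 0.89 and 0.93.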

How the data were processed

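Whole-intestine poly-A RNA libraries of TRDKO and wild-type tadpoles were analysed, 3 per genotype and stage. The authors mapped adapter-trimmed reads with STAR 2.6.1c to the Ensembl Xenopus tropicalis genome with JGI gene models and counted them per gene with featureCounts 1.6.3 (tool versions also in the submitters' processing notes). The deposited values are these raw counts. The strand setting and the treatment of reads matching several genes are not given in the sources used here, so overlapping genes and near-identical copies are uncertain. The study's methods call the RNA samples biological replicates. If libraries of a group share animals, p-values measure technical spread only.

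Columns were matched to libraries by title. Size factors used the 12983 genes with counts in every library. Totals ranged from 20112705 to 37936503 counts, and intervals and limits cover counting error only. Counts were tested with edgeR 4.0.16 in R 4.3.3 (filterByExpr, TMM, one quasi-likelihood model with a mean per group), where 13954 genes remained. Standard errors were derived from the F statistic. Exact intervals came from scipy 1.17.1. Both contrasts and the rule were run on simulated counts with planted differences well beyond their limits, and for the rule with counting noise only. These runs check the code and say nothing of genes near a limit. Alternatives were DESeq2 1.42.0, RLE factors, library size alone, no count filter, no fold threshold, a replicate block, other limits of the rule and each library left out. The p-values served to count genes past the thresholds and do not test the 11 genes, which were chosen on the same values. Leaving a replicate number out of all groups, the mirrored rule, the offset before the log and the stage 54 values without TRDKO replicate 3 were chosen after the data were seen.

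The members and tests were chosen with earlier results of these data known. Of the gene IDs, 0 matched the RefSeq gene table of assembly UCB_Xtro_10.0. The rule for named genes then gave 4 IDs, the 2 largest called rises (ENSXETG00000023395, ENSXETG00000022190) and the 2 largest called falls (ENSXETG00000004496, ENSXETG00000026803) between the stages in TRDKO. The other members and genes near the limits are given by ID after their values were seen. Planned marker and pathway lists needed symbols and were not used, and no sequences were read.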

Additional observations from a re-analysis of the deposited data

Results flagged for a closer look

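In 3 genes the TRDKO to wild-type ratio differed between the stages past the thresholds of the interaction contrast (edgeR, adjusted over all genes tested). The ratio was lower at stage 61 than at stage 54, with a log2 change of -1.71 in ENSXETG00000031140, -4.02 in ENSXETG00000004496 and -2.78 in ENSXETG00000026803. The genes were chosen on these same ratios, which are capped at both stages. Past the same thresholds, 26.8% of all genes tested had a lower ratio at stage 61. The 3 values are therefore a description of these genes and not a result about the 11. With single libraries left out the values ranged from -1.97 to -1.50, from -5.85 to -3.60 and from -4.04 to -2.11. That of ENSXETG00000004496 rests on 1 raw count over the TRDKO stage 61 libraries and that of ENSXETG00000026803 on 4.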

How the results depend on the processing

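The number of genes that met the rule was 11 with TMM scaling and 13 with library size alone (0 shared). It was 23 with a 3-fold and 6 with a 5-fold limit, 20 with a wild-type minimum of 20, 7 with one of 100 and 7 with a stage window of 1.5-fold. With single libraries left out it was 9 to 16, and with a replicate number left out of all groups 8 to 17. Genes higher at stage 61 in TRDKO numbered 1 with DESeq2 and 1 to 2 with single libraries left out. Those lower numbered 4 to 5. Genes with a higher ratio at stage 61 numbered 0 to 1 and those with a lower ratio 3 to 5 with single libraries left out, and 7 with library size alone. The replicate number as a block left these counts at 2, 4, 0 and 3. No share of all genes is given for these alternatives, so nothing is read from the counts. Libraries of the same number did not visibly deviate together (correlations across genes of -0.0269 to 0.0425 in 18 pairs). A pairing with little effect on the counts could not be seen in this way.

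Some values not past the thresholds changed sign. With library size alone the log2 change of the ratio was -0.78 in ENSXETG00000022190, and -1.13 in ENSXETG00000003443, which was then past them on the other side (edgeR adjusted p = 0.0103). Under that scaling the median change over all genes shifted by -1.19, more than either value, so nothing is read from these signs or this p-value. In ENSXETG00000003443 it was -0.0574, -0.0190 and -0.0907 without TRDKO stage 54 replicate 1, TRDKO stage 61 replicate 1 and TRDKO stage 61 replicate 2, and -0.0907 to 0.29 over all single libraries left out. In ENSXETG00000020831 it was 0.11 without TRDKO stage 61 replicate 2 (range -0.98 to 0.11), and the TRDKO stage change was -0.34 without TRDKO stage 61 replicate 3 (range -0.34 to 0.75). The cause of the sign changes with single libraries left out was not tested. Of the 340 values of single genes under these alternatives, 319 kept their direction and call. Many of them could hardly change, since a wild-type library touches the TRDKO stage change only through the shared scaling and spread. This share is therefore no measure of how stable the values are. Members with under 10 TRDKO counts per stage are limited by depth.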
